A study of Mus musculus with 2 samples.

Results

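Short structural RNAs are noncoding transcripts that work as RNA, inside ribonucleoprotein particles or as adaptors in translation. The set described here was chosen by gene type and by count. It holds every row of the deposited table typed as snRNA, scRNA, tRNA, RNase P RNA, RNase MRP RNA or telomerase RNA that had at least 25 raw counts in either library. That gave 31 of the 437 rows of these types and of the 44792 rows in all, namely 12 snRNA, 2 scRNA, 14 tRNA and 1 row of each of the other types. Because the counts of these same libraries chose the members, their values are a description. Of the 12 rows typed as snRNA, 4 are copies of U3 and 1 is U73B, which are known as small nucleolar RNAs, so the type covers more than spliceosomal RNAs.

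The libraries were made from OCCM-30, a mouse cell line that was immortalized and resembles cementoblasts, the cementum-forming cells of tooth roots. The compressed group was wild type cells put under compressive force and the control group was wild type cells without that treatment, both grown in the same serum-containing medium with antibiotics. Each group had 1 library, with 24296292 counts under force and 25049919 in the control library, and how strong the force was and how long it lasted is not stated in the sources used here. Of the markers of the labelled cell type, Runx2 had 4416 counts under force and 5788 in the control library and Alpl had 859 and 817. Spp1 had 4769 and 4460, with a ratio on the other side of 1 from that of Runx2 (1.10 and 0.787), and Sp7 had 99 and 98, while osteocalcin (Bglap) had 12 and 11 and bone sialoprotein (Ibsp) had 0 in both.

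Spliceosomal RNAs pair with splice sites and with each other to remove introns, U1, U2 and U5 in the major spliceosome and U11 and U12 in the minor one. The RNAs 7SK, RNase P RNA, RNase MRP RNA and 7SL are made by RNA polymerase III and respectively restrain transcription elongation, trim the leaders of precursor tRNAs, process ribosomal RNA and target secretory proteins to the endoplasmic reticulum. Mature forms of these RNAs carry no poly(A) tail and tRNAs are heavily folded and modified, so the share of each that enters a sequencing library depends on how the library was made. Whether poly(A) selection or ribosomal RNA removal was used is not stated in the labels.

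Values below are raw counts, then the ratio of the compressed over the control value after scaling for depth (CPM, counts scaled to library size). Each ratio has an exact 95% interval for counting error only. With 1 library a group no ratio has a replicate check, there is no test, and each ratio compares these libraries and not the conditions. In bulk RNA, fewer cells that make an RNA and less of it per cell cannot be told apart.

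Counts of the 31 RNAs ran from 6 to 88832 per library. Together they held 0.563% of the compressed library and 0.470% of the control library. Rn7sk, Rpph1 and Rmrp made up 94.7% of those counts under force and 93.8% in the control library. Only 5 members reached 1000 counts, 8 had at least 100 but fewer than 1000 in their larger library, and 18 stayed under 100.

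**Figure D1:**
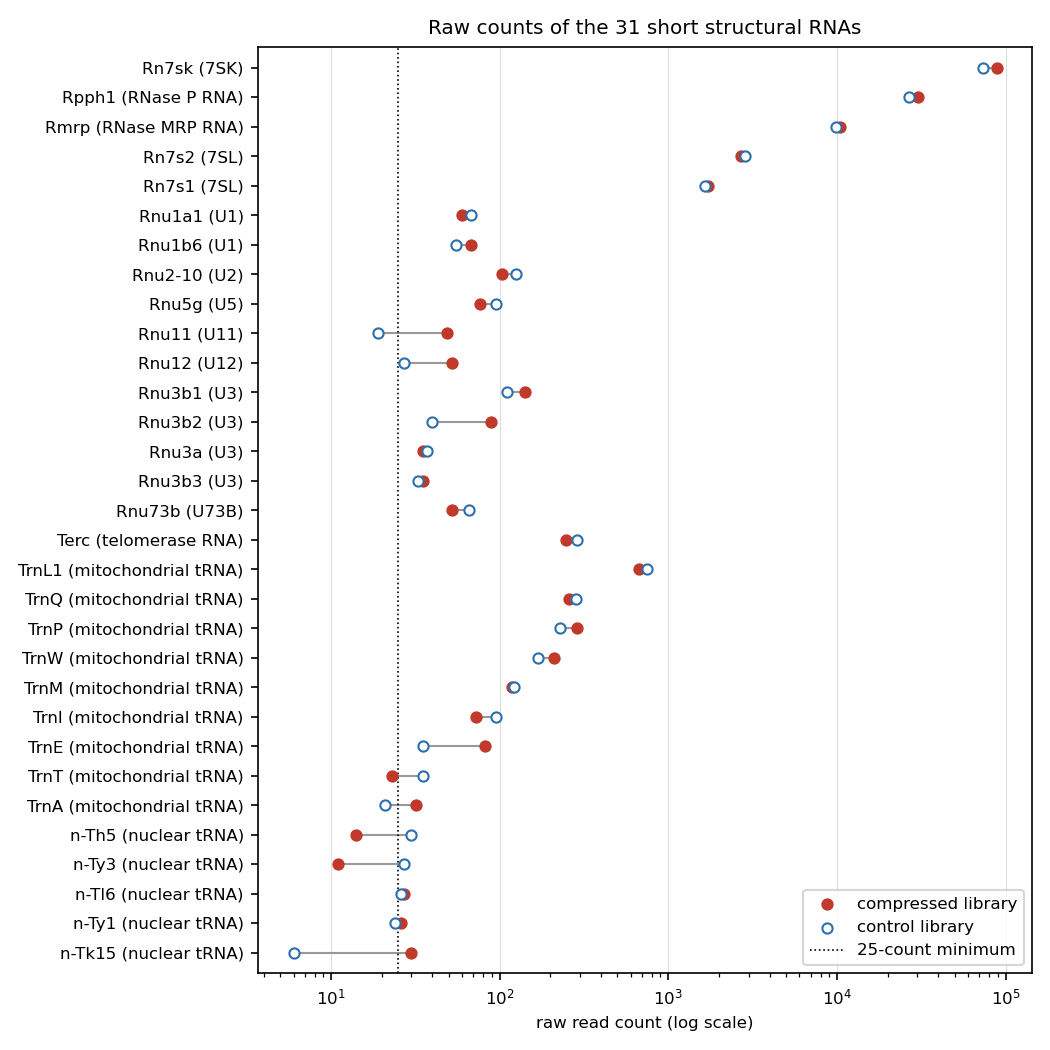
Raw read counts (log scale) of each of the 31 RNAs in the compressed library (filled red) and the control library (open blue), grouped by family, with the 25-count minimum as a dotted line. Rn7sk lies highest at 88832 and 74020 counts, and the nuclear tRNAs at the bottom have 6 to 30 counts.

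Most members lay near a ratio of 1. A member was counted as past 2-fold when its ratio was 2 or more, or 0.5 or less, and its interval did not include 1. By that rule 4 members were past 2-fold higher and 2 past 2-fold lower. That is 12.9% and 6.45% of the 31, beside 3.1% and 1.05% of all 14044 rows with at least 25 counts in either library. All 6 had fewer than 100 counts in either library. Among the 18 members of that size the shares were 22.2% and 11.1%, and among all 2659 rows of that size they were 10.1% and 4.81%. Intervals lay wholly above 1 for 11 members (35.5%) and below 1 for 2 (6.45%), beside 26.2% and 28.6% of all 14044 rows. Whether an interval excludes 1 depends on depth. These all-row shares are not matched for depth, here or beside the gene lists below. The median log2 ratio of the members was 0.10, against -0.01 for all 14044 rows.

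**Figure D2:**
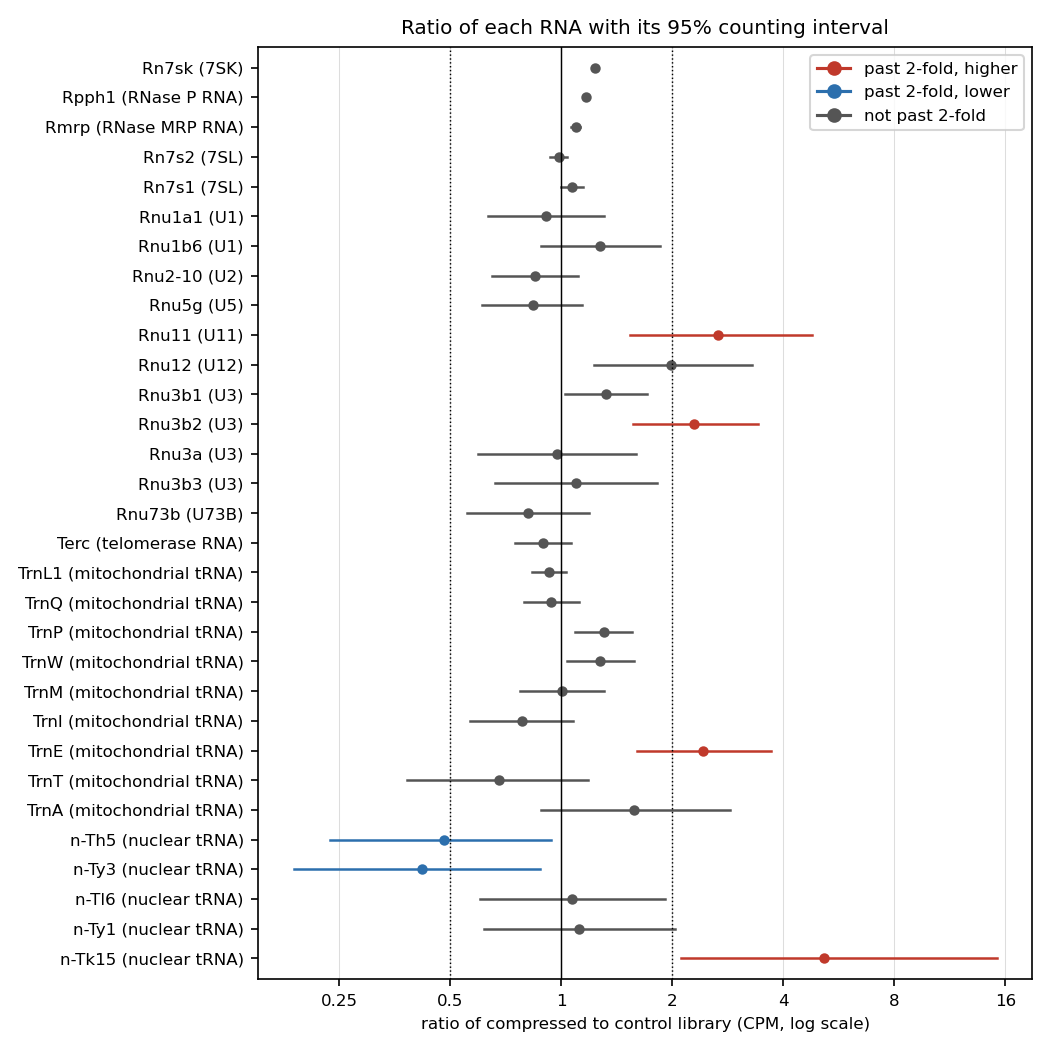
Compressed over control ratio of each RNA (point) with its 95% counting interval (line), on a log scale, with dotted lines at 0.5 and 2. Rnu11, Rnu3b2, TrnE and n-Tk15 lie past 2 (red), n-Th5 and n-Ty3 lie below 0.5 (blue), and the intervals of Rn7sk and Rpph1 are narrower than their symbols.

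The most abundant member was 7SK (Rn7sk), the scaffold RNA that holds the elongation kinase P-TEFb in an inactive particle. It had 88832 counts under force and 74020 in the control library, so the compressed library was the higher of the pair. The ratio was 1.24 (95% counting interval 1.23 to 1.25). Rn7sk held rank 8 among all rows of the compressed library and rank 10 in the control library, and made up 0.366% and 0.295% of all counts. It also supplied 99.1% of the counts of the snRNA members in each library, so the summed snRNA ratio of 1.24 is in effect the ratio of this gene. The other 11 snRNA rows summed to 763 counts against 677, a ratio of 1.16 (1.05 to 1.29). The gene lies on chromosome 9 at 78175302 to 78175633 (GRCm38.p6). Its nearest annotated neighbour, the lncRNA C920006O11Rik, starts 280 bases beyond it in RefSeq and had 49 counts against 28, giving a ratio of 1.81 (1.11 to 2.98).

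The narrow interval of Rn7sk covers counting error and not the difference between cultures. Among the 1139 rows with at least 5000 counts in either library, 90% had ratios between 0.783 and 1.28, and Rn7sk lies inside that range, as do Rpph1 and Rmrp. The protein partners of 7SK did not share its direction as a group. None of the 7 genes of the 7SK particle and P-TEFb was past 2-fold, and their median log2 ratio was -0.11. The lowest was Hexim1, the protein that inhibits P-TEFb when bound to 7SK, with 1435 counts against 2368, a ratio of 0.625 (0.585 to 0.668). At the other end was Ccnt2, a cyclin subunit of P-TEFb, with 4302 counts against 3628, a ratio of 1.22 (1.17 to 1.28).

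Rpph1 is the RNA subunit of RNase P, the enzyme that removes the 5′ leader of precursor tRNAs. It had 30227 counts under force and 26633 in the control library, and the compressed library was the higher. The ratio was 1.17 (1.15 to 1.19). The gene lies on chromosome 14 at 50807447 to 50807771 (GRCm38.p6), back to back with Parp2, a poly(ADP-ribose) polymerase, with 125 bases between the annotated genes. The sequence between them is shown because it serves both genes as promoter, one transcribed by RNA polymerase III and the other by RNA polymerase II. It comes from the RefSeq promoter window of Parp2 and is read here 5′ to 3′ on the opposite strand, from chr14:50807896 down to chr14:50807772. Capitals mark matches to the octamer motif (ATGCAAAT) and to the TATA motif (TATAA), each searched on both strands. The RefSeq gene table used here gives no strand, and that Rpph1 and Rmrp are read away from their neighbours is background knowledge on which the distances upstream rest. The line after the first gives the first 106 bases of Rpph1, chr14:50807666-50807771.
Upstream of Rpph1: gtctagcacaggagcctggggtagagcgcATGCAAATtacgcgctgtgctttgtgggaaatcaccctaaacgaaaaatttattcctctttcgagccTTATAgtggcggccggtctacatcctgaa
Start of Rpph1: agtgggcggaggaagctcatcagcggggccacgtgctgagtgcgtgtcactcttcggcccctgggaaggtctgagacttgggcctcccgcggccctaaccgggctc

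In this stretch the TATA match lies 25 to 29 bases upstream of the annotated first base of Rpph1, and the octamer match lies 89 to 96 bases upstream. On the strand shown the octamer reads ATGCAAAT. The TATA match reads TTATA there, so its TATAA lies on the other strand, that of Parp2. Across the 32851 RefSeq promoter windows, each of 300 bases, the octamer occurred in 1.74% and the TATA motif in 24.9%. A match describes the letters only. Parp2 had 653 counts under force and 639 in the control library, a ratio of 1.05 (0.944 to 1.18). Its interval and that of Rpph1 overlap, and a difference between the ratios of the pair was not tested.

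Rmrp is the RNA subunit of RNase MRP, a relative of RNase P that cleaves precursor ribosomal RNA. It had 10475 counts under force and 9864 in the control library, the smallest relative difference of the 3 most abundant members. The ratio was 1.10 (1.07 to 1.13). The gene lies on chromosome 4 at 43492785 to 43493059 (GRCm38.p6), and Ccdc107, a protein-coding gene, starts 280 bases further on. The stretch next to Ccdc107 is shown for comparison with that of Rpph1, chr4:43493115-43493339 read on the strand opposite to Ccdc107, with the same motifs in capitals.
Between Ccdc107 and Rmrp: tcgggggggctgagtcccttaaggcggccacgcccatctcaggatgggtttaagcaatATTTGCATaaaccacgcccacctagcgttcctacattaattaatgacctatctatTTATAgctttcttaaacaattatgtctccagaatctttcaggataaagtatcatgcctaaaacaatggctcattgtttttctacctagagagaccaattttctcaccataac

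Both motifs were present here too. The octamer match lies 215 to 222 bases and the TATA match 163 to 167 bases from the edge of Rmrp that faces Ccdc107. The stretch starts 56 bases from that edge, so the bases nearest to Rmrp were not searched and the distances cannot be set against those of Rpph1. On the strand shown the octamer reads ATTTGCAT and the TATA match reads TTATA, so both motifs have their stated letters on the other strand. Ccdc107 had 506 counts against 467, a ratio of 1.12 (0.984 to 1.27), close to the value of Rmrp.

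RNase P and RNase MRP share most of their protein subunits, and the median ratio of these lay below 1 where both RNAs had ratios above 1. Of 11 listed genes, 10 had at least 25 counts and none was past 2-fold. The median log2 ratio was -0.25, against -0.01 over all 14044 rows. The counting interval lay below 1 for 5 of them and above 1 for none, beside 28.6% and 26.2% of all 14044 rows. Pop7 had 218 counts against 393, a ratio of 0.572 (0.483 to 0.677). Rpp38 had the highest ratio, 1.16 (0.915 to 1.48), with 152 counts against 135.

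The 2 scRNA rows, Rn7s1 and Rn7s2, are copies of 7SL, the RNA backbone of the signal recognition particle. Rn7s1 had 1710 counts under force and 1652 in the control library, a ratio of 1.07 (0.998 to 1.14). Rn7s2 had 2718 counts against 2851, giving a ratio of 0.984 (0.933 to 1.04). The copies differed in direction and both intervals included 1. Their sum, 4428 counts against 4503, had a ratio of 1.01 (0.973 to 1.06). Both lie on chromosome 12, at 69159295 to 69159593 and at 69361183 to 69361481, and both span 299 bases. Because near-identical copies share reads and the handling of such reads is not given, the sum is the safer value.

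Among the proteins of the signal recognition particle all 8 listed genes had at least 25 counts, none was past 2-fold and the median log2 ratio was 0.03. Srp14, which with Srp9 binds the Alu domain of 7SL, was lowest at 0.864 (0.794 to 0.941), with 996 counts against 1189. Srp54b, a copy of the subunit that binds signal sequences, was highest at 1.16 (0.909 to 1.49), with 144 counts against 128.

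The RNAs of the major spliceosome had few counts, and none had an interval that excluded 1. For U1, which recognizes the 5′ splice site, Rnu1a1 had 60 counts under force and 68 in the control, a ratio of 0.911 (0.633 to 1.31). The other U1 copy, Rnu1b6, had 68 counts against 55, giving a ratio of 1.28 (0.881 to 1.85). The copies lay on either side of 1, and their sum of 128 counts against 123 had a ratio of 1.07 (0.832 to 1.39). U2, which binds the branch point, is represented by Rnu2-10, with 104 counts against 126, a ratio of 0.852 (0.651 to 1.11). U5, which aligns the exons, is represented by Rnu5g, with 77 counts against 95, a ratio of 0.836 (0.611 to 1.14). Summed after their values were seen, U1, U2 and U5 had 309 counts against 344, giving a ratio of 0.927 (0.792 to 1.08). The row Rnu6, for U6, had 5 counts against 3 and is no member.

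These levels were low beside those of the polymerase III RNAs. In CPM per kilobase of RNA, Rnu5g stood at 27.3 under force and 32.7 in the control library. The 7SL copy Rn7s1 stood at 235 and 220, and Rn7sk at 11017 and 8896. Rnu1a1, at 15.1 and 16.5 on the same scale, lies within the span of Tex14, a gene of germ cells with 0 counts in both libraries. Rnu1b6 and Rnu5g lie within spans of lncRNA genes, Gm10685 and Gm40099 for the former and Gm40527 for the latter. The deposited table holds 17 snRNA rows, whereas RefSeq for GRCm38.p6 lists 1004 snRNA genes, and how reads with several alignments were counted is not given, so the levels of U1, U2 and U5 are uncertain.

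Protein genes of the major spliceosomal particles had medians at or below 0 on the log2 scale. The U1 proteins had a median of -0.01 over 3 genes, from Snrpa at a ratio of 0.953 to Snrnp70 at 1.13. The Sm proteins, which form the ring around most spliceosomal RNAs, had a median of -0.15 over 7 genes, from Snrpb at 0.848 (0.808 to 0.889) to Snrpd3 at 0.932 (0.867 to 1.002). The U2 proteins had a median of -0.18 over 12 genes, from Snrpa1 at 0.768 (0.707 to 0.834) to Sf3b1, the branch point factor, at 1.28 (1.25 to 1.31). The proteins of U4, U5 and U6 had a median of -0.12 over 21 genes, from Usp39 at 0.789 to Lsm7 at 1.31. In that list Lsm8 was taken from the row Naa38, at 0.802. That older symbol of Lsm8 now names another gene, so which gene the row counts is uncertain. No gene of these lists was past 2-fold. In the assembly list of the SMN complex and cap trimethylation, 10 of 15 intervals lay below 1 and 2 above. The shares over all rows, not matched for depth, were 28.6% and 26.2%. There Gemin4 was lowest at 0.637 (0.586 to 0.692) and Snupn, the import adaptor for capped snRNAs, highest at 1.74 (1.44 to 2.11).

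U11 and U12, the members that belong to the minor spliceosome alone, had higher counts in the compressed library. That spliceosome removes a rare class of introns. U11 (Rnu11), which recognizes the 5′ splice site of those introns, had 49 counts under force and 19 in the control library. Its ratio of 2.66 (1.54 to 4.79) was past the limit. U12 (Rnu12), which binds their branch point, had 52 counts against 27. Its ratio of 1.99 (1.23 to 3.29) was just under the limit and became 2.002 with upper-quartile scaling. Summed after their values were seen, they had 101 counts against 46. The summed ratio was 2.27 (1.58 to 3.28). Rnu11 reached the minimum of 25 counts in the compressed library alone, so its choice as a member already favours a high ratio. Rnu11 lies on chromosome 4 at 132270079 to 132270186 with no annotated gene within 1000 bases. Rnu12 lies on chromosome 15 at 83149645 to 83149794, with Poldip3, at a ratio of 0.972 (0.940 to 1.01), whose span ends 266 bases away.

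Of 8 protein genes of the minor spliceosome, none was past 2-fold and the median log2 ratio was 0.01. The lowest was Rnpc3, which bridges the U11 and U12 particles, with 792 counts against 1264, a ratio of 0.647 (0.591 to 0.707). The highest was Snrnp35, a U11 protein, with 128 counts against 89, a ratio of 1.48 (1.12 to 1.97). The interval of Snrnp35 overlaps those of U11 and U12, while that of Rnpc3 lies below 1.

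U3 is the small nucleolar RNA that guides early cleavage of precursor ribosomal RNA. Its copy Rnu3b2 had 89 counts under force and 40 in the control library, a ratio of 2.30 (1.56 to 3.42). Rnu3b1 had 142 counts against 111, giving a ratio of 1.32 (1.02 to 1.71). The other member copies were nearly level, with 35 counts against 33 for Rnu3b3 and 35 against 37 for Rnu3a. A further copy, Rnu3b4, had 21 counts against 19 and is no member. Only Rnu3b2 was past 2-fold. The sum of the 4 member copies was 301 counts against 221, a ratio of 1.41 (1.18 to 1.68), and without Rnu3b2 it was 1.21 (0.986 to 1.48). With Rnu3b4 added to the 4, the ratio was 1.38 (1.17 to 1.64). Rnu3b1, Rnu3b2 and Rnu3b3, of 215 bases each, lie within 28346 bases on chromosome 11, inside the span of Tex14, and Rnu3a lies on chromosome 10 at 40258468 to 40258679. How reads shared between these copies were assigned is not given, so the difference among copies is uncertain. U73B (Rnu73b), a box C/D small nucleolar RNA, had 52 counts against 66, a ratio of 0.813 (0.554 to 1.19).

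Telomerase RNA (Terc) is the template from which telomere repeats are copied. It had 249 counts under force and 288 in the control library. Its ratio of 0.892 had an interval that included 1 (0.750 to 1.06), so a difference was not detectable at this depth. Terc lies on chromosome 3 at 96414437 to 96414833. The 6 listed protein genes of telomerase had a median log2 ratio of -0.33, with 4 intervals below 1 and none above, beside 28.6% and 26.2% of all rows. Dkc1, the pseudouridine synthase that stabilizes Terc, was lowest at 0.700 (0.663 to 0.739), with 2200 counts against 3244. Tert, the reverse transcriptase, was highest with 44 counts against 36, a ratio of 1.26 (0.793 to 2.02).

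Of the 14 tRNA members, 9 are encoded in the mitochondrial genome, where tRNAs punctuate the long transcripts that also hold the mRNAs and rRNAs and are cut out by mitochondrial RNase P and Elac2. The most abundant was TrnL1, a leucine tRNA, with 672 counts under force and 748 in the control library, a ratio of 0.927 (0.834 to 1.03). TrnP (proline) had 287 counts against 227, a ratio of 1.30 (1.09 to 1.56). TrnQ (glutamine) had 259 against 284, a ratio of 0.941 (0.792 to 1.12). The 3 most abundant thus did not share a direction. TrnW (tryptophan) had 209 counts against 169, a ratio of 1.28 (1.04 to 1.57). TrnM (methionine), with 118 against 121 and a ratio of 1.01, and TrnI (isoleucine), with 72 against 95 and a ratio of 0.782, had intervals that included 1. The same held for TrnA (alanine), with 32 counts against 21 and a ratio of 1.57, and for TrnT (threonine), with 23 against 35 and a ratio of 0.678.

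TrnE, the glutamate tRNA, had the highest ratio among the 9. It had 82 counts under force and 35 in the control library, a ratio of 2.42 (1.61 to 3.70), and was the mitochondrial member past 2-fold. TrnE adjoins ND6, which like it is read from the light strand and had 17998 counts against 15738, a ratio of 1.18 (1.16 to 1.21). On its other side lies CYTB, at a ratio of 0.971 (0.954 to 0.989). With TrnE, the 9 tRNAs summed to 1754 counts against 1735, a ratio of 1.04 (0.976 to 1.12). Without it the ratio was 1.01 (0.948 to 1.09).

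Per base, the tRNAs were thinly covered beside the genes around them. TrnL1 had 8.96 counts per base under force and 9.97 in the control library, between Rnr2 at 21.1 and 21.4 and ND1 at 17.1 and 20.8. TrnE had 1.19 and 0.507 counts per base, between ND6 at 34.7 and 30.3 and CYTB at 20.2 and 21.5. Adjacent genes share bases in places, such as TrnI with ND1 and with TrnQ, and TrnW with ND2, and how a read that spans a junction was counted is not given. A stretch of low coverage ran from TrnS1 through ND4L, positions 6870 to 10173 of the mitochondrial genome, where 5 tRNAs had at most 2 counts. In the same stretch COX2, ATP8, ATP6, COX3, ND3 and ND4L had 3 to 253 counts, against 229424 and 190932 for COX1 just before it. How reads with several alignments were counted is not given, and the source of the low coverage was not tested. A count of 0 allows up to 3 counts, so ratios of those tRNAs cannot be given.

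**Figure D3:**
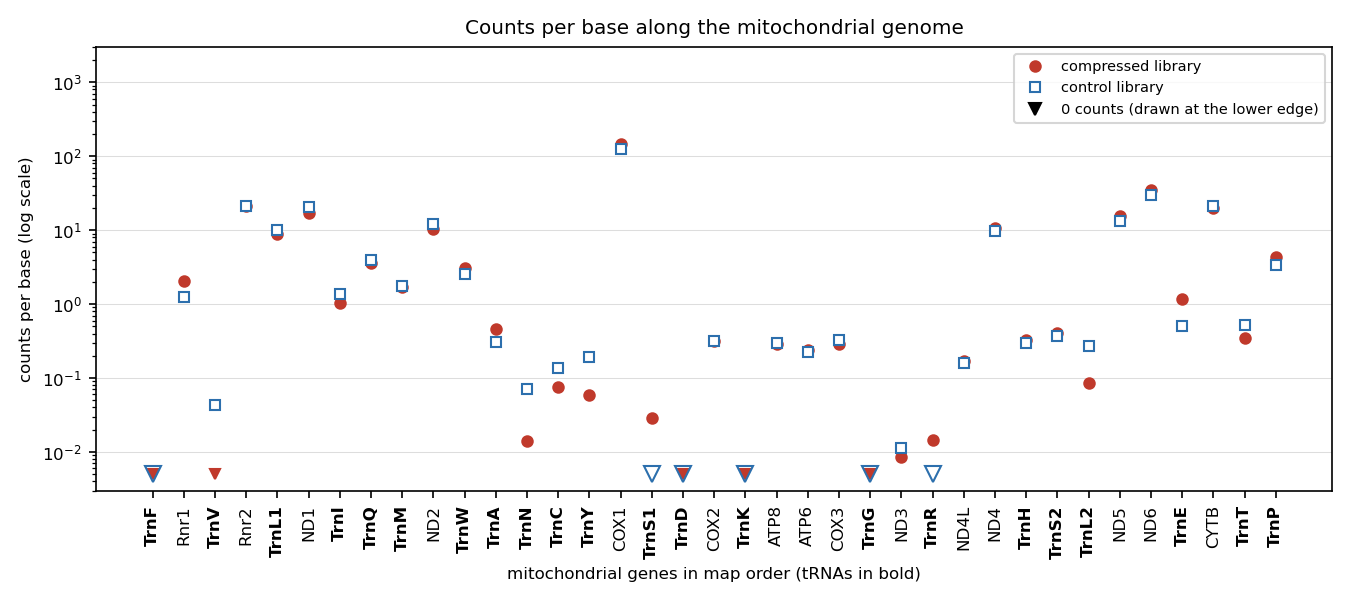
Counts per base (log scale) of mitochondrial genes in map order, with tRNAs in bold, for the compressed (filled) and control (open) library, and triangles for 0 counts. COX1 is highest at 148 and 124 counts per base, and coverage is low from TrnS1 through ND4L in both libraries.

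Nuclear genes for the tRNA processing and transcription of mitochondria had a median log2 ratio of -0.20 over 8 genes, with none past 2-fold. Elac2, which cuts the 3′ end of precursor tRNAs, was lowest at 0.760 (0.704 to 0.821), with 1150 counts against 1561. Hsd17b10, a subunit of mitochondrial RNase P, was highest at 1.13 (1.06 to 1.21), with 1834 counts against 1670.

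The other 5 tRNA members are nuclear genes, whose products are the adaptors of cytoplasmic translation, and all lay close to the 25-count minimum. The lysine tRNA gene n-Tk15 had 30 counts under force and 6 in the control library, a ratio of 5.16 (2.11 to 15.2). The histidine tRNA gene n-Th5 had 14 counts against 30, giving a ratio of 0.482 (0.236 to 0.937). The tyrosine tRNA gene n-Ty3 had 11 counts against 27, a ratio of 0.420 (0.188 to 0.876). These 3 were past 2-fold, but in both directions. With a prior count of 5 added to both libraries the ratio was 0.557 for n-Th5 and 0.512 for n-Ty3, inside the limit of 0.5, and 3.25 for n-Tk15. Neither lower member is therefore past 2-fold under that setting. The tyrosine tRNA gene n-Ty1 had 26 counts against 24 and the leucine tRNA gene n-Tl6 had 27 against 26, and the intervals of the tyrosine genes, 0.617 to 2.03 for n-Ty1, overlap. Summed, the 5 had 108 counts against 113, a ratio of 0.986 (0.751 to 1.30).

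A row with so few counts reaches the minimum in one library and misses it in the other when the libraries differ, so the choice of members favours large ratios here. The 3 members nearest the minimum from above were n-Ty1, n-Ty3 and n-Tl6. Just below it, at 24 counts in the larger library, were TrnS2 with 24 counts against 22, Rnu7, the U7 RNA of histone mRNA processing, with 16 against 24, and n-Tr19, an arginine tRNA gene, with 3 against 24. Of the 391 nuclear tRNA rows, 262 had 0 counts in both libraries and 124 had counts below the minimum. All 391 together had 395 counts against 453, a ratio of 0.900 (0.784 to 1.03), so no difference was detectable for nuclear tRNAs as a class. None of the 5 members was matched to a RefSeq position.

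The genes that make these RNAs were also given as lists. SNAPc, the factor that binds snRNA, 7SK and RNase P RNA promoters, had a median log2 ratio of 0.09 over 5 genes, from Snapc5 at a ratio of 0.883 (0.750 to 1.04) to Snapc2 at 1.17 (1.06 to 1.29). RNA polymerase III with its factors had a median of -0.11 over 23 genes, with 2 intervals above 1 and 12 below, beside 26.2% and 28.6% of all rows. Those 2 were Polr3gl, a polymerase subunit, with 868 counts against 482, a ratio of 1.86 (1.66 to 2.08), and Maf1, the repressor of the polymerase, at 1.29 (1.19 to 1.40). Maf1 was named after its value was seen. The lowest was Polr3e, at 0.792 (0.719 to 0.872). The Integrator complex, which cuts the 3′ ends of snRNAs made by RNA polymerase II, had a median of -0.16 over 14 genes. Its list held some genes under both an old and a new symbol, and each gene was counted once. The ratios ran from Ints2 at 0.776 (0.733 to 0.821) to Ints9 at 1.11 (0.995 to 1.23). Of these 14 intervals, 10 lay below 1 and none above, beside the same 28.6% and 26.2%. In the list around U7 and histone mRNA processing, Casp8ap2 was lowest at 0.855 and Zfp473 highest at 1.82 (1.09 to 3.10), with 44 counts against 25. The list of Y RNA and La proteins holds Trove2, the Ro protein that binds Y RNAs, at 0.977 (0.940 to 1.02), and Ssb, the La protein that binds the 3′ ends of RNA polymerase III transcripts, at 0.981 (0.934 to 1.03).

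Over all 16 lists, 154 genes had at least 25 counts and none was past 2-fold, beside 3.1% and 1.05% of all rows. Those shares are not matched for depth. Among rows with 25 to 99 counts they were 10.1% and 4.81%, and most listed genes had more counts than that. The 154 genes had a median log2 ratio of -0.14. The median was -0.01 over all 14044 rows and -0.04 over the 5864 rows with at least 1000 counts.

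**Figure D4:**
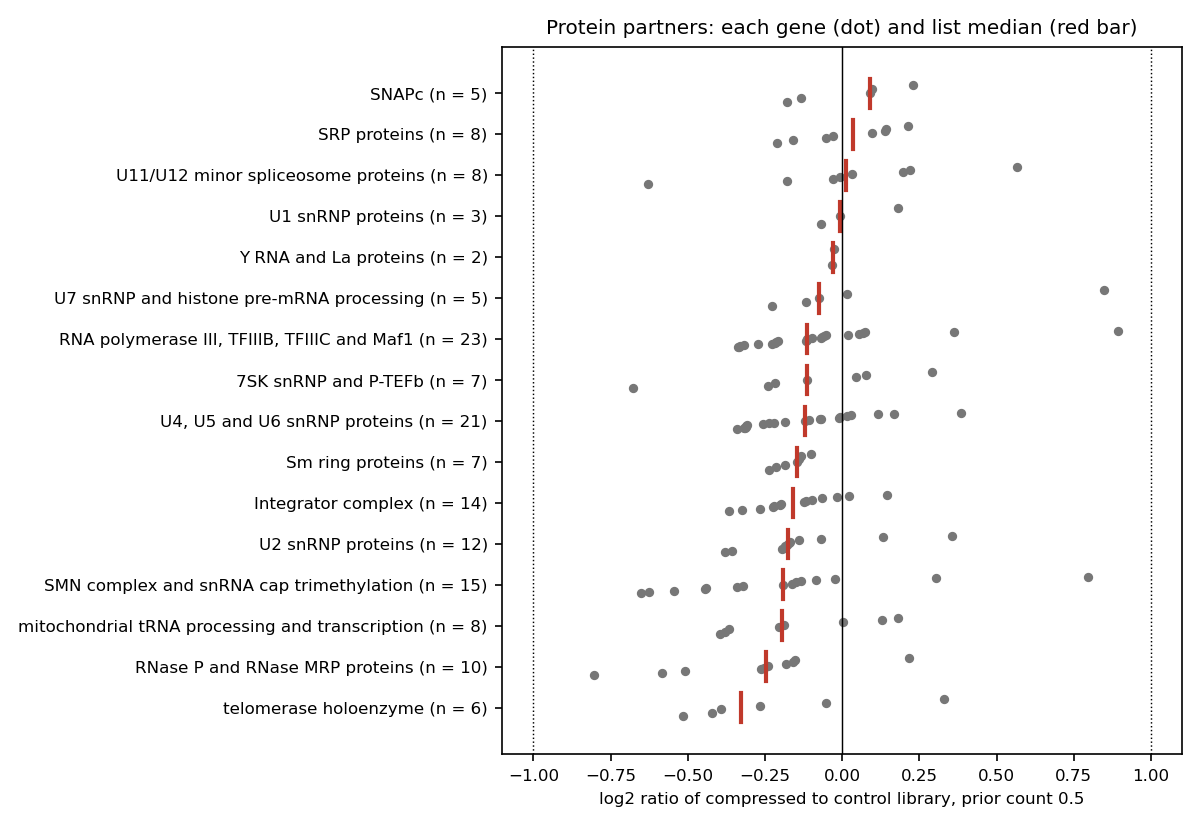
Log2 ratio of compressed over control for each protein gene (dot) and the median (red bar) of each of the 16 lists, with dotted lines at 2-fold. The medians run from 0.09 for SNAPc to -0.33 for telomerase, and no gene reaches a dotted line.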

How the data were processed

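The deposited table holds raw read counts per gene symbol, with a gene type, for 2 libraries. Alignment with HISAT2 to GRCm38 is recorded in the submitters' processing notes. The tool that counted reads, its strand setting, the annotation version and how multiply aligned reads were treated are not stated there or in the labels. From these deposited counts, CPM was computed on library sizes scaled by TMM (edgeR 4.0.16, R 4.3.3). Ratios carry exact conditional binomial (Clopper-Pearson) 95% intervals (scipy 1.17.1), which cover counting error only. They treat reads as independent, so they are too narrow where reads are not independent molecules. Log2 ratios used a prior count of 0.5. Intervals and the 2-fold rule were tested on simulated data that held counting error only. That simulation cannot show how they behave when cultures differ. No p-value was computed, because 1 library per group leaves no residual degrees of freedom. Positions, counted from 1, lengths and sequences are from RefSeq for GRCm38.p6, which matched 25 of the 31 members by symbol.

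Members and lists were chosen with earlier results of these data known. All 31 members are named. From each list the genes of highest and lowest ratio were named, unless stated otherwise. Alternatives were 4 other scalings, including DESeq2 1.42.0 size factors, other count minimums, ratio limits and prior counts, and leaving out members.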

Additional observations from a re-analysis of the deposited data

How the results depend on the processing

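Of 293 alternative values, 285 were counted as unchanged. Ratios had to stay within the counting interval of the value reported, and numbers of members within 1.5 times of it. The wide intervals of low counts make that rule easy to pass. With a prior count of 5, n-Tk15 at 3.25 counted as unchanged, as did n-Th5 and n-Ty3, which no longer reached 0.5. A class of 1 gene, such as RNase P RNA at 1.17, cannot move when other members are left out. Its gene was also counted again as a named member. The tally of 285 is therefore no measure of robustness. The 285 include all 8 alternatives of the median log2 ratio, which has no counting interval. All 200 values under the 4 other scalings were among the 285. Total counts, DESeq2 size factors, upper-quartile factors and mRNA totals thus each left the ratios of classes and members nearly as they were. Without its most abundant member the ratio was 1.16 for snRNA, 1.07 for scRNA, 1.12 for tRNA and 1.13 for mitochondrial tRNA. Without members that overlap an mRNA or lncRNA gene in RefSeq, U3 is left with Rnu3a alone, at 0.976. With no count minimum 6 rows were past 2-fold higher and 6 lower, and at a minimum of 100 counts 0 and 0 were, since all 6 called members are below it. With a prior count of 5, the ratios of n-Th5 (0.557) and n-Ty3 (0.512) no longer reached 0.5 and that of n-Tk15 was 3.25. The median log2 ratio of the members ranged from 0.03 to 0.11. No paired analysis was possible because each group has 1 library. Depth limits every spliceosomal, U3 and nuclear tRNA value, and the spread between cultures is unknown.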

Other observations

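Some values outside the chosen members differed between the libraries. The small mitochondrial rRNA (Rnr1) had 1935 counts under force and 1203 in the control library, a ratio of 1.66 (1.54 to 1.79), while the large one (Rnr2) had 33329 against 33862, a ratio of 1.02 (1.00 to 1.03). TrnV, which lies between them, had 0 counts against 3. TrnL2, the other leucine tRNA of the mitochondrion, had 6 counts against 19, a ratio of 0.326 (0.107 to 0.849), where TrnL1 stood at 0.927. The 33 rRNA rows other than these mitochondrial ones had 0 counts in both libraries. These genes were chosen after their values were seen.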
